A study of Mus musculus with 24 samples.

Results

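Expression after a stable block of the Notch coactivator was compared with expression under the drug alone: 3 arrays labelled DNMAML-GSI were set against 3 labelled MigR1-GSI. These 6 arrays were taken by their titles from the 24 of the series, which hold 4 constructs in 2 treatments. All of them carry RNA from the mouse line T6E, a Notch1-dependent T-cell acute lymphoblastic leukaemia. MigR1 is the empty retroviral vector, and DNMAML is a dominant negative fragment of Mastermind-like (MAML). Both groups were kept for 6 hours with compound E at 1 uM, which inhibits gamma-secretase (GSI), so the inhibitor is shared and the construct is what differs. The same constructs in the solvent DMSO (MigR1-DMSO and DNMAML-DMSO, 3 arrays each) served for reference, and the remaining arrays, with 2 forms of intracellular Notch1 (ICN1 and R1984A), entered only the estimate of the spread and the choice of probe set for genes with several. The labels name 1 cell line, do not say how many clones or transductions it stands for, and do not say whether the 3 samples of a group were separate cultures. The p-values therefore reflect how far these samples scatter, and that scatter may be technical.

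Notch receptors are cut by gamma-secretase after ligand binding or through activating mutations, and the freed intracellular domain enters the nucleus. There it binds the DNA-binding protein Rbpj, and Mastermind-like proteins join the pair to recruit acetyltransferases and start transcription. GSI stops the cleavage, while DNMAML occupies the Rbpj and Notch surface without recruiting coactivators. In T-cell leukaemia the pathway is known for driving Myc, Hes1 and other growth genes, and for shaping T-lineage development. The comparison thus asks what a standing block at the coactivator step adds to cells in which the cleavage step is already inhibited. DNMAML was a stable block, whereas the inhibitor acted for hours, so the blocked step and the length of the block change together. Which of them a difference reflects was not tested.

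Values are log2 expression values of 19938 genes, with 1 probe set per gene, so that a difference of 1 is a doubling. T-cell genes were read as a check of the cell type. The mean of Cd3e, for a CD3 subunit of the T-cell receptor complex, was 10.33 ± 0.09 in MigR1-GSI and 10.36 ± 0.08 in DNMAML-GSI (SD, n = 3). That of Cd3g was 9.67 ± 0.11 and 9.71 ± 0.04. Both are among the brighter of 45 measured T-cell identity genes, of which 6 had means under the highest array median. In MigR1-GSI, Cd4, Cd5, Cd8a and Cd8b1 had means of 4.25, 4.24, 4.05 and 3.42. Replicate 3 had the highest array median in both groups, 4.18 in MigR1-GSI and 4.07 in DNMAML-GSI, against 3.92 to 3.96 for the other 4 arrays. Across genes, pairs of arrays had an r of 0.982 to 0.993 within MigR1-GSI and 0.989 to 0.994 within DNMAML-GSI, and genes are not independent replicates. The construct itself was not visible in Maml1, whose mean was 4.33 ± 0.14 with the empty vector and 4.55 ± 0.15 with DNMAML (difference 0.22, 95% interval -0.04 to 0.48). The place of that probe set relative to the DNMAML fragment is not known here, so it checks no label. Notch1 and Rbpj, the other components of the complex, differed by 0.15 (interval -0.11 to 0.42) and 0.17 (-0.22 to 0.56).

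DNMAML cells under inhibitor differed from inhibitor-treated empty-vector cells in 38 genes at an adjusted p under 0.05 in limma, which is 0.191% of the genes tested. Of these, 21 were higher with DNMAML (0.105%) and 17 were lower (0.0853%). The genes that rose include surface receptors and signalling adaptors of lymphocytes, and those that fell include nucleolar factors and enzymes of growth metabolism. In all 38, the 3 arrays of one group lay entirely above the 3 of the other, an arrangement found in 1045 genes upwards (5.24%) and 921 downwards (4.62%) over the whole array. At an unadjusted p under 0.05, 1249 genes passed (6.26%), against 996.9 expected by chance. With the replicate number as a block, 163 genes were called (0.818%), 93 higher (0.466%) and 70 lower (0.351%), and the 38 were all among them. A second quantile normalization of the arrays called 28 higher and 49 lower, so the balance of directions depends on the scaling. Single arrays weighed heavily: 23, 9 and 12 genes were called without DNMAML-GSI replicate 1, 2 or 3, and 12, 12 and 21 without MigR1-GSI replicate 1, 2 or 3. Cpa3, Aff3, Slc7a8, Afdn, Agfg1 and Snora73b were called in each of those 6 fits, and the other 32 genes lost their call in at least 1, with adjusted p-values of up to 0.29.

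**Figure D1:**
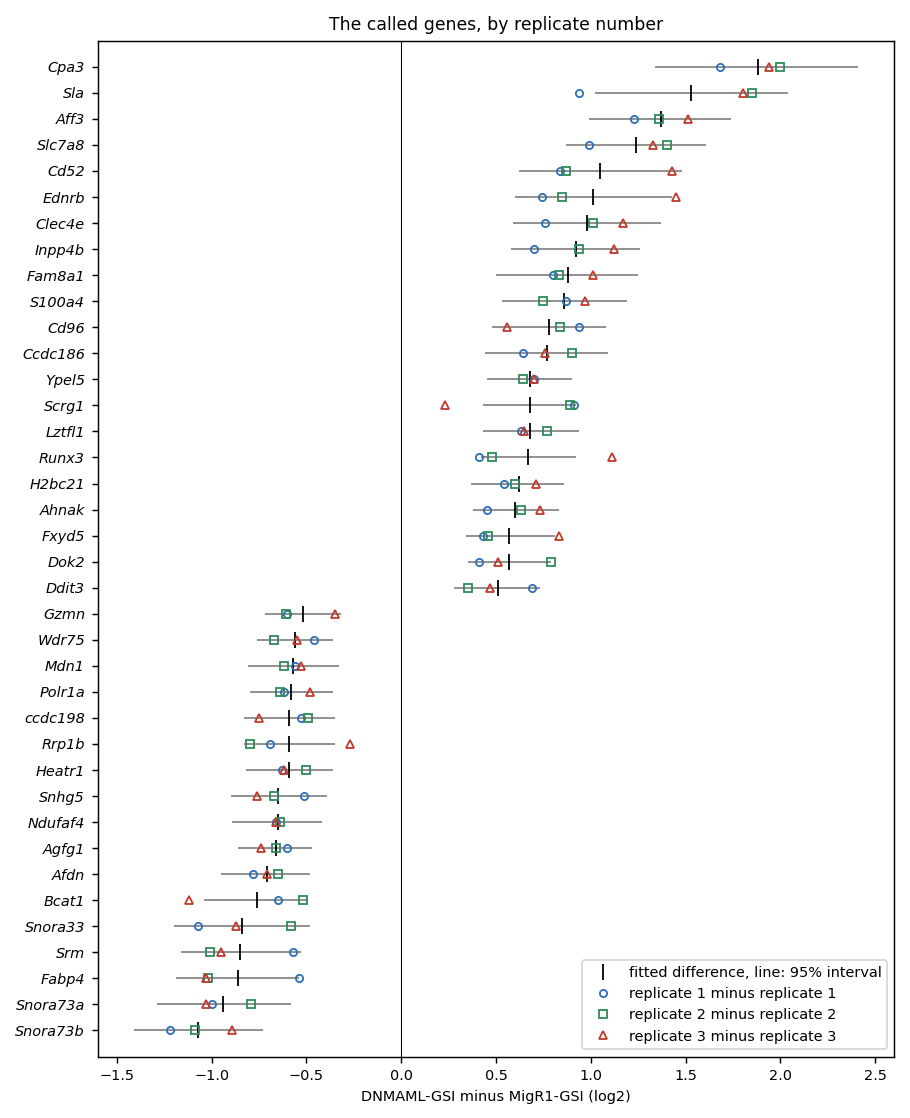
The 38 called genes (rows), with the fitted DNMAML-GSI minus MigR1-GSI difference on the log2 scale (tick), its 95% interval (line) and the difference within each replicate number (circle, square and triangle). Every marker lies on the same side of 0 as its gene's fitted value, from -1.07 for Snora73b to 1.88 for Cpa3.

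The largest called rise was that of Cpa3, which encodes carboxypeptidase A3, a protease known from mast cell granules and early T-cell progenitors. Its values were 7.47, 7.60 and 7.61 in MigR1-GSI and 9.15, 9.60 and 9.55 in DNMAML-GSI. The groups were well apart, and the rise of 1.88 (SE 0.26, adjusted p = 0.002 in limma) is a 3.67-fold difference. In DMSO the same construct difference was 2.28 (SE 0.26), and the inhibitor alone moved Cpa3 in empty-vector cells by 0.57 (SE 0.26, adjusted p = 0.98). Of 15 measured mast cell and basophil markers, Cpa3 was the 1 called (0.105% of all genes were called higher). The replicate block called 2 higher (0.466% of all genes), Cpa3 and Kit (0.52, adjusted p = 0.088 in limma, 0.014 with the block). Mcpt1, Mcpt2, Mcpt4, Mcpt8, Tpsab1, Cma1, Ms4a2 and Fcer1a had group means between 2.34 and 3.14, below every array's median. Of all 15, 12 had means under the highest array median. At an unadjusted p under 0.05, 2 were higher and 1 lower (3.31% and 2.95% of all genes), and the lowest difference was -0.44 (Mcpt8). The mean level over the 15 ranged from 3.58 to 3.70 in MigR1-GSI and from 3.70 to 3.83 in DNMAML-GSI, Cpa3 included. In such bulk RNA more cells of a type and more RNA per cell cannot be told apart.

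Sla, an adaptor that dampens signalling from the T-cell receptor, read 6.34, 6.08 and 5.69 in MigR1-GSI and 7.28, 7.93 and 7.49 in DNMAML-GSI. The spread within each group was wide, yet the lowest DNMAML array stood above the highest empty-vector array. The rise was 1.53 (SE 0.25, adjusted p = 0.0064 in limma), a 2.89-fold difference, and the call was lost without DNMAML-GSI replicate 2 (adjusted p = 0.066). Aff3, a nuclear factor of the transcription elongation machinery, read 7.16, 7.34 and 7.31 against 8.39, 8.70 and 8.83 with DNMAML. That rise of 1.37 (SE 0.18, adjusted p = 0.002) kept its call whichever of the 6 arrays was left out. Slc7a8, a transporter of large neutral amino acids, went from 6.82, 6.62 and 6.78 to 7.81, 8.02 and 8.10, a rise of 1.24 (SE 0.18, adjusted p = 0.002). Its groups were separated by about 1 unit, while the inhibitor alone gave 0.08 (SE 0.18) in empty-vector cells.

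Further surface proteins and receptors were higher with DNMAML. Cd52, a small lipid-anchored lymphocyte glycoprotein, read 6.58, 6.95 and 6.08 in MigR1-GSI and 7.42, 7.83 and 7.52 in DNMAML-GSI. Replicate 3 of the empty vector was the lowest array, and Cd52 rose by 1.05 (SE 0.21, adjusted p = 0.027 in limma). Ednrb, an endothelin receptor, read 6.41, 6.47 and 5.93 against 7.15, 7.31 and 7.38, with no overlap and a rise of 1.01 (SE 0.20, adjusted p = 0.027). Clec4e, a C-type lectin receptor best known from myeloid cells, read 7.25, 7.33 and 7.04 against 8.01, 8.34 and 8.21, a rise of 0.98 (SE 0.19, adjusted p = 0.021). None of the 18 myeloid markers listed was called, and their mean level ranged from 3.27 to 3.38 in MigR1-GSI and from 3.24 to 3.33 in DNMAML-GSI. Cd96, a receptor of T and natural killer cells that binds nectin-family ligands, read 6.05, 6.16 and 5.98 against 6.98, 7.0 and 6.54. Its lowest DNMAML array was replicate 3, still above all empty-vector arrays, and the rise was 0.78 (SE 0.15, adjusted p = 0.019).

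The remaining rises were of mixed function. Inpp4b, a phosphatase that limits PI3K signalling, read 6.36, 6.39 and 6.29 in MigR1-GSI and 7.06, 7.33 and 7.42 in DNMAML-GSI. The empty-vector arrays were tightly grouped, and the rise was 0.92 (SE 0.16, adjusted p = 0.016 in limma). Runx3, a transcription factor of the cytotoxic T lineage, read 7.29, 7.24 and 6.73 against 7.71, 7.72 and 7.84, a rise of 0.67 (SE 0.12, adjusted p = 0.016). Here replicate 3 of the empty vector lay lowest, and without the replicate 3 arrays of all groups the difference was 0.45 (adjusted p = 0.23). Dok2, an adaptor that restrains Ras signalling, rose by 0.57 (SE 0.11), and S100a4, a calcium-binding protein of motile cells, by 0.86 (SE 0.16), from 9.26 ± 0.19 to 10.12 ± 0.10 (SD, n = 3). Ypel5, a protein associated with a ubiquitin ligase complex, rose by 0.68 (SE 0.11). Fam8a1, which takes part in degradation of proteins from the endoplasmic reticulum, rose by 0.88 (SE 0.18), and Ccdc186, a coiled-coil protein of vesicle formation, by 0.77 (SE 0.16).

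The stress factor Ddit3 (CHOP) read 6.82, 7.01 and 6.83 in MigR1-GSI and 7.51, 7.37 and 7.29 in DNMAML-GSI, a rise of 0.51 (SE 0.11, adjusted p = 0.048 in limma). Ddit3 lay just inside the threshold and was called in 0 of the 6 fits without an array, where its adjusted p reached 0.20. Ddit3 was 1 of 33 measured genes of the amino acid stress list, and the 1 called. In that list 1 gene was higher and 6 were lower at an unadjusted p under 0.05 (3.31% and 2.95% of all genes), with a median difference of -0.16. Scrg1 also rose by 0.68, but its means of 2.72 and 3.40 lay below every array's median, as did those of the called falls of ccdc198 (2.98 to 2.40) and Gzmn (2.78 to 2.25). The remaining called rises, named here after their values were seen, were Ahnak, Fxyd5 and H2bc21, by 0.57 to 0.62.

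On the falling side, Srm encodes spermidine synthase, a polyamine enzyme known as a Myc target. It read 7.66, 7.97 and 7.48 in MigR1-GSI and 7.09, 6.96 and 6.52 in DNMAML-GSI, so each DNMAML array lay below all empty-vector arrays. Srm fell by 0.85 on the log2 scale (SE 0.15, adjusted p = 0.016 in limma), close to its fall of 0.78 in DMSO. Bcat1, the cytosolic enzyme of branched-chain amino acid transamination, read 6.96, 6.64 and 6.87 against 6.31, 6.12 and 5.75, a difference of -0.76 (SE 0.13, adjusted p = 0.015). Fabp4, a fatty acid binding protein, read 9.31, 9.14 and 9.13 against 8.77, 8.12 and 8.11. Replicate 1 of DNMAML-GSI stood well above its 2 companions, and the difference was -0.86 (SE 0.16, adjusted p = 0.016). Ndufaf4, an assembly factor of respiratory complex I and a known Myc target, read 7.80, 7.85 and 7.59 against 7.15, 7.21 and 6.92, a difference of -0.65 (SE 0.11, adjusted p = 0.014).

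Afdn, Agfg1 and Rrp1b combined a called fall with DNMAML under inhibitor and a called fall with inhibitor alone. Agfg1, a protein of vesicle traffic with an Arf GTPase-activating domain, read 9.17, 9.15 and 9.20 in MigR1-GSI and 8.57, 8.49 and 8.47 in DNMAML-GSI. Both groups were narrow, and the difference was -0.66 (SE 0.09, adjusted p = 0.002 in limma). In empty-vector cells the inhibitor alone moved Agfg1 by -0.82 (SE 0.09, adjusted p = 4.9e-05), and DNMAML in DMSO by -1.31 (SE 0.09). Afdn, the junction and actin adaptor afadin, read 8.55, 8.43 and 8.44 against 7.76, 7.78 and 7.73, a difference of -0.71 (SE 0.11, adjusted p = 0.0064). For Afdn the inhibitor alone gave -0.60 (SE 0.11, adjusted p = 0.024) and DNMAML in DMSO -1.12 (SE 0.11). The comparison of inhibitor alone shares its MigR1-GSI arrays with the main one, so these values stand side by side and no overlap is drawn from them.

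**Figure D2:**
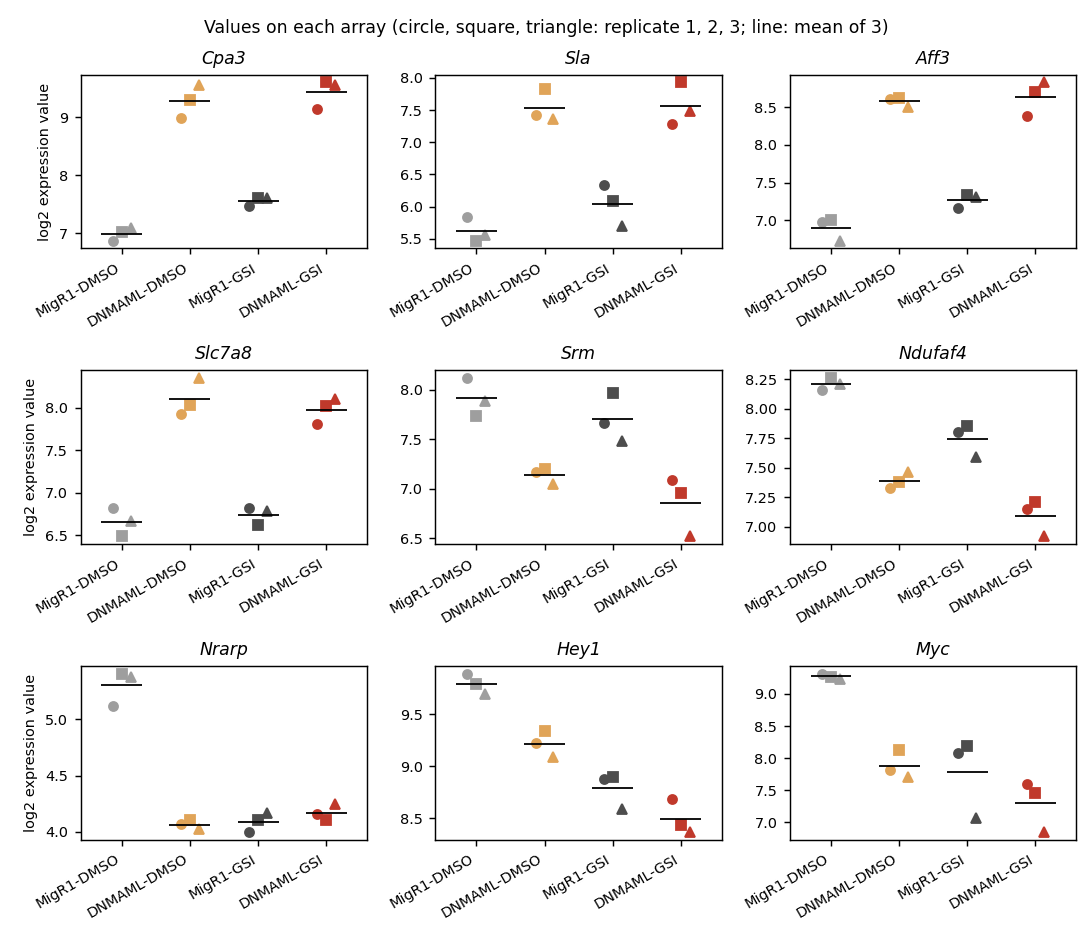
Log2 expression values (y axis) of 9 genes on each array of 4 groups (x axis), with a marker per replicate number and a line at the mean of 3. Cpa3, Sla, Aff3 and Slc7a8 are higher and Srm and Ndufaf4 lower in DNMAML-GSI than in MigR1-GSI without overlap, while the Nrarp means of the 2 groups are 4.17 and 4.09.

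The listed Notch targets include genes such as Hes1, Hey1, Nrarp and Dtx1 that the Notch complex is known to activate. The list mixes directions: Lztfl1, Ets1 and Gata3 were called higher with DNMAML in DMSO (by 1.01, 0.86 and 0.62). Few of the listed targets were called between the 2 inhibitor-treated groups. Of 28 measured, 1 was called higher (Lztfl1) and 0 lower, against 0.105% and 0.0853% of all genes. At an unadjusted p under 0.05, 3 were higher and 5 lower (3.31% and 2.95% of all genes). The median difference, over members of both directions, was 0.07 against 0.00 for all genes. The replicate block called 2 higher (Lztfl1 and Ets1) and 1 lower (Il2ra), against 0.466% and 0.351% of all genes. The same list held 9 lower and 3 higher calls for DNMAML in DMSO, where 386 of all genes were called (1.94%), and 8 lower calls for the inhibitor in empty-vector cells, where 33 genes were called (0.166%), 6 higher (0.0301%) and 27 lower (0.135%). With the replicate block these 2 counts over all genes were 934 (4.68%) and 82 (0.411%). The mean level over the 28 targets ranged from 5.72 to 5.78 in MigR1-GSI and from 5.74 to 5.82 in DNMAML-GSI, and 5 of the 28 had means under the highest array median.

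Nrarp, a feedback inhibitor that is itself switched on by Notch, read 4.0, 4.10 and 4.17 in MigR1-GSI and 4.16, 4.10 and 4.25 in DNMAML-GSI. The arrays overlapped, and the difference was 0.08 with a 95% interval of -0.14 to 0.30. Untreated empty-vector cells read 5.12, 5.41 and 5.38, and DNMAML cells in DMSO 4.07, 4.10 and 4.02. The empty vector in DMSO was the 1 group of these 4 that stood apart. The other groups lay near the array medians (3.90 to 4.18), and whether a further fall could be measured there was not tested. The DNMAML difference under GSI minus that in DMSO was 1.32 (SE 0.15, adjusted p = 2e-04 in limma), and Nrarp was the 1 gene called in that test of all genes (0.00502%). This call was lost without the replicate 2 arrays of all groups (adjusted p = 0.52) and without those of replicate 3 (0.053). With the replicate block 4 genes were called in this test (0.0201%): Nrarp, Mfsd2a, Capn5 and Serpinb8, whose differences under GSI were 0.08, 0.18, -0.18 and -0.58. Mfsd2a, Capn5 and Serpinb8 were named after their values were seen.

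The Hairy-related repressors gave mixed values. Hey1 read 8.88, 8.90 and 8.59 in MigR1-GSI and 8.68, 8.43 and 8.37 in DNMAML-GSI, with overlapping arrays. Its difference of -0.30 (95% interval -0.52 to -0.08, adjusted p = 0.51 in limma) did not pass, and the DMSO difference was -0.57 (SE 0.11). Hes1 read 4.07, 4.53 and 4.47 against 4.39, 4.35 and 4.15, a difference of -0.06 (interval -0.35 to 0.23). Hes5 and Heyl differed by 0.07 and 0.20. Hes1, unlike Hes5, had been lower with DNMAML in DMSO (-0.65, adjusted p = 0.012).

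Myc, the growth regulator downstream of Notch in T-cell leukaemia, varied more between replicates than between the 2 groups. It read 8.08, 8.18 and 7.07 in MigR1-GSI and 7.59, 7.45 and 6.85 in DNMAML-GSI. Replicate 3 was the lowest array of each group, and the groups overlapped. Each DNMAML array was below the empty-vector array of the same number, but the difference of -0.48 (interval -0.91 to -0.04, adjusted p = 0.72 in limma, 0.25 with the replicate block) was not called. The inhibitor alone gave -1.50 for Myc in empty-vector cells (SE 0.21, adjusted p = 7e-04), and DNMAML in DMSO gave -1.40 (SE 0.21, adjusted p = 0.00043).

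Among the other targets, Il2ra, the interleukin-2 receptor subunit also called CD25, read 6.66, 6.77 and 6.50 in MigR1-GSI and 5.98, 6.35 and 5.87 in DNMAML-GSI. The groups did not overlap, and the difference of -0.57 (SE 0.14) had an adjusted p of 0.13 in limma and of 0.04 with the replicate block. Dtx1, a Deltex ubiquitin ligase that acts on Notch, read 5.42, 5.07 and 5.21 against 4.25, 4.77 and 5.55. The DNMAML arrays spanned the empty-vector ones, and the difference was -0.38 (interval -0.81 to 0.04). Deptor, an inhibitor of mTOR, and Notch3 differed by -0.37 and -0.46, neither called. Runx1, called lower with inhibitor alone and with DNMAML alone, differed by 0.07 (interval -0.16 to 0.29).

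Lztfl1, a protein of ciliary trafficking placed on the target list, was its 1 called member. It read 9.79, 10.01 and 9.89 in MigR1-GSI and 10.42, 10.78 and 10.54 in DNMAML-GSI. The groups did not overlap, and Lztfl1 rose by 0.68 (SE 0.12, adjusted p = 0.016 in limma). Its other probe set gave 0.82 with an adjusted p of 0.23 when every probe set was tested. Ets1, a lymphoid transcription factor, read 6.21, 6.0 and 5.72 against 6.68, 6.57 and 6.50, again without overlap, with a difference of 0.61 (adjusted p = 0.088, 0.0097 with the replicate block).

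**Figure D3:**
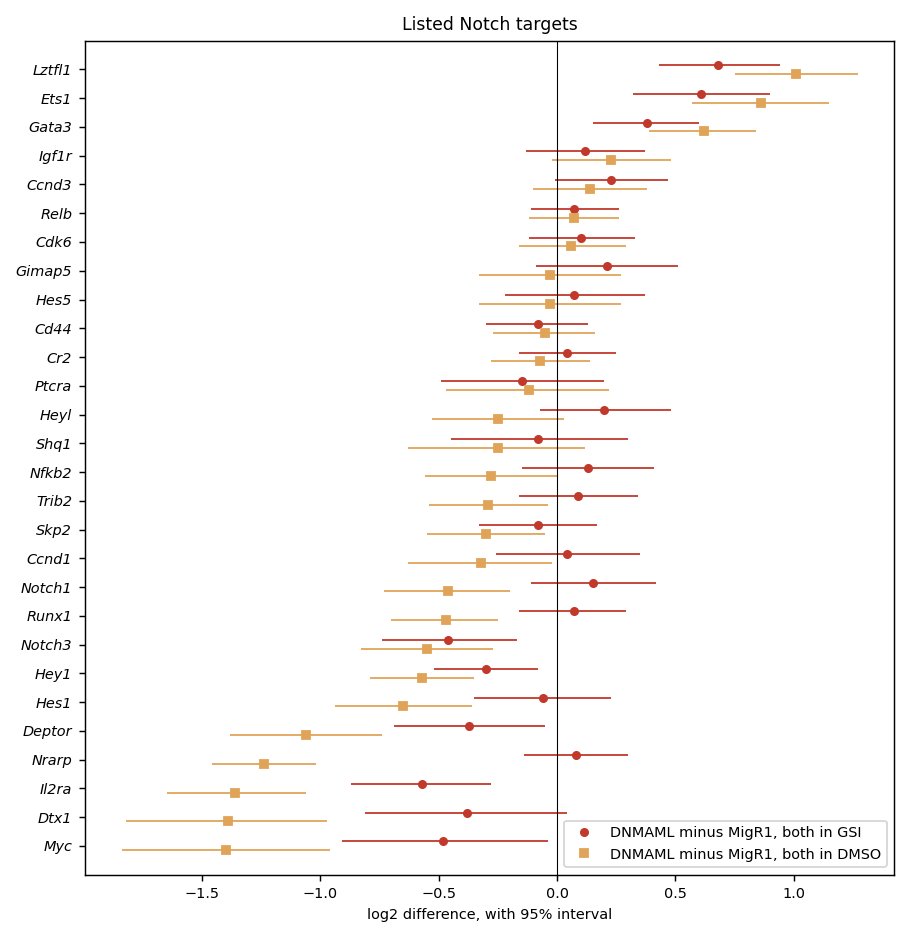
The 28 measured Notch targets (rows), with the DNMAML minus MigR1 difference in GSI (circles) and in DMSO (squares) on the log2 scale and 95% intervals (lines). Nrarp lies at 0.08 in GSI and -1.24 in DMSO, Myc at -0.48 and -1.40, and Lztfl1 at 0.68 and 1.01.

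Over these 28 targets, the difference between the 2 construct effects (GSI minus DMSO) reached an unadjusted p under 0.05 upwards in 11 and downwards in 0, where 1.60% and 1.51% of all genes did. Its median over the list was 0.23. Dtx1 gave 1.01 (interval 0.41 to 1.61), Myc 0.92 (0.31 to 1.54), Il2ra 0.78 (0.37 to 1.20) and Deptor 0.69 (0.23 to 1.14), each with an adjusted p of at least 0.85. The remaining machinery of the pathway, 44 measured genes for receptors, ligands, proteases and cofactors, had 0 calls in the main comparison. There 2 were higher and 3 lower at an unadjusted p under 0.05, against 3.31% and 2.95% of all genes. The replicate block also called 0.

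Genes of the Myc network and of ribosome biogenesis mostly had negative differences. Of 58 measured, 55 had a negative difference, and the median was -0.29 against 0.00 for all genes. In the list 6 were called lower and 0 higher, against 0.0853% and 0.105% of all genes. The 6 were Srm, Ndufaf4, Rrp1b, Heatr1, Polr1a and Wdr75. At an unadjusted p under 0.05, 29 were lower and 1 higher, against 2.95% and 3.31% of all genes. The replicate block called 14 lower, against 0.351% of all genes. The list's mean level ranged from 7.66 to 7.95 in MigR1-GSI and from 7.40 to 7.63 in DNMAML-GSI, without overlap. The number of calls rested on single arrays. It was 3, 1 and 0 without DNMAML-GSI replicate 1, 2 or 3, and 0, 0 and 6 without MigR1-GSI replicate 1, 2 or 3, while the median stayed between -0.44 and -0.21. Second quantile normalization called 12 lower with a median of -0.32.

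Polr1a, the largest subunit of RNA polymerase I, read 7.15, 7.15 and 6.97 in MigR1-GSI and 6.53, 6.51 and 6.49 in DNMAML-GSI. The DNMAML arrays were nearly equal, and the difference was -0.58 (SE 0.11, adjusted p = 0.016 in limma). Heatr1, a part of the machinery that processes the small ribosomal subunit, read 7.87, 7.85 and 7.71 against 7.23, 7.34 and 7.09, a difference of -0.59 (SE 0.11, adjusted p = 0.020). Wdr75, of the same machinery, went from 8.68 ± 0.09 to 8.12 ± 0.08 (SD, n = 3) and fell by 0.56. Rrp1b, a nucleolar protein, read 6.31, 6.40 and 5.90 against 5.62, 5.60 and 5.63, a difference of -0.59 (SE 0.12, adjusted p = 0.027). Its empty-vector replicate 3 was nearest to the DNMAML arrays, and the inhibitor alone gave -0.56 in empty-vector cells (SE 0.12, adjusted p = 0.048). Mdn1, the large ATPase that matures the large ribosomal subunit, stands outside the list and fell by 0.57 (SE 0.12, adjusted p = 0.039).

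The replicate block added Ddx21, Nolc1, Nop56, Nop58, Gnl3, Mybbp1a, Utp20 and Wdr43 of the same list, which act in the nucleolus on ribosomal RNA or pre-ribosomes. Ddx21 differed by -0.63 (adjusted p = 0.086 in limma, 0.0017 with the block), Nolc1 by -0.58 (0.088 and 0.002) and Gnl3 by -0.51 (0.057 and 0.0025). None of these 8 was called without the block in the fit of all 24 arrays. Odc1, the entry enzyme of polyamine synthesis, and Cdk4 differed by -0.03 and -0.02, near the median of all genes. Mxd4, which antagonises Myc by binding its partner Max, had the highest difference in the list, 0.33 (adjusted p = 0.68).

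Myc and Max bind the E-box CACGTG, so the RefSeq promoter windows of assembly GRCm38.p6 (300 bases, 250 before to 50 after the start of the gene) were searched for it. Its letters read the same on both strands. It was in 16 of 51 list members with a window (31.4%) and in 9.50% of 15614 measured genes. Within the list, the 16 genes with the motif had a median difference of -0.16 and the 35 without it -0.34. It was in 1 of 12 genes called lower (8.33%), 3 of 16 called higher (18.8%), 10 of 54 lower with the replicate block (18.5%) and 8 of 79 higher with it (10.1%). Of the 13 list members with a window that were lower in either fit, 3 held it (23.1%). The stretches of the 3 list members that were lower with the replicate block and held the motif are shown because they carry both readouts, with the E-box in capitals, 5′ to 3′ on the strand of the gene.
Mybbp1a: aagtgactgtcttctgagccCACGTGtttg
Utp20: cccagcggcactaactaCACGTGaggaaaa
Wdr43: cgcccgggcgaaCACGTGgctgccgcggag
They lie at chr11:72441347-72441376 (plus strand), chr10:88826765-88826794 (minus strand) and chr17:71616220-71616249 (plus strand) of GRCm38.p6, and the motif begins 40, 37 and 17 bases after the start of the gene. The core of the Rbpj site, TGGGAA on either strand, was in 5 of 16 genes called higher (31.2%), 1 of 12 called lower (8.33%) and 27.1% of all. With the replicate block it was in 27 of 79 higher (34.2%) and 12 of 54 lower (22.2%). A match is a description of the letters in this window.

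Small nucleolar RNA genes, many of whose products guide the modification of ribosomal RNA, were singled out after their values were seen. The 3 called falls were Snora73b, Snora73a and Snora33. Snora73b read 8.29, 8.30 and 8.13 in MigR1-GSI and 7.07, 7.21 and 7.25 in DNMAML-GSI, with a gap of almost 1 unit between the groups, and the difference was -1.07 (SE 0.16, adjusted p = 0.0052 in limma). Snora73a fell by 0.94 and Snora33 by 0.84. Snora73a and Snora73b are near-identical copies whose probes may not tell them apart. Over 54 measured genes of this class 44 had a negative difference, the median was -0.34, and 19 were lower and 0 higher at an unadjusted p under 0.05 (2.95% and 3.31% of all genes). The 3 calls compare with 0.0853% of all genes called lower, and the replicate block called 7 lower (0.351% of all genes). Snhg5, a host gene of small nucleolar RNAs, read 9.51, 9.32 and 9.28 against 9.0, 8.65 and 8.52, a difference of -0.65 (SE 0.12, adjusted p = 0.021).

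T-cell identity genes had more positive than negative differences. Of 45 measured, 1 was called higher (Runx3) and 0 lower, 13 were higher and 0 lower at an unadjusted p under 0.05, and the median was 0.13. Over all genes 0.105% were called higher, and 3.31% were higher and 2.95% lower at that unadjusted p. The mean level over the list was 6.70 to 6.81 in MigR1-GSI and 6.91 to 6.97 in DNMAML-GSI, without overlap. The replicate block called 6 higher, against 0.466% of all genes: Runx3, Ets1, Cd247, Kit, Ikzf1 and Lcp2. Cd247, the zeta chain of the T-cell receptor complex, went from 6.55 ± 0.22 to 7.12 ± 0.21, a difference of 0.57 (adjusted p = 0.35 in limma, 0.022 with the block). Kit, the stem cell factor receptor of early thymocytes, differed by 0.52 (0.088 and 0.014). Gata3, a T-lineage factor that is also on the Notch target list, read 8.65, 8.57 and 8.77 against 8.88, 9.03 and 9.20, without overlap, and differed by 0.38 (adjusted p = 0.27). The list's call of Runx3 was lost without DNMAML-GSI replicate 2 or 3 and without MigR1-GSI replicate 3.

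Inhibitory receptors and signalling brakes, molecules that dampen antigen receptor or cytokine signals, had 3 of 46 called higher (Sla, Cd96 and Dok2; 0.105% of all genes) and 0 lower, with a median of 0.07. At an unadjusted p under 0.05, 6 were higher and 1 lower (3.31% and 2.95% of all genes). The replicate block called 4 higher (0.466% of all genes), adding Pecam1, which differed by 0.57 (adjusted p = 0.38 in limma, 0.039 with the block). Pdcd1, the checkpoint receptor PD-1, had 5.86 ± 0.53 in MigR1-GSI and 6.57 ± 0.28 in DNMAML-GSI (SD, n = 3), overlapping arrays and a difference of 0.71 that was not called (adjusted p = 0.41). Of 36 genes of the mTOR and PI3K pathways, 1 was called higher (Inpp4b) and 0 lower, with a median of 0.04. At an unadjusted p under 0.05, 3 were higher and 3 lower (3.31% and 2.95% of all genes). The block added Inpp5d (0.41) and Pik3cg (0.59), giving 3 higher and 0 lower (0.466% and 0.351% of all genes). The number of calls among the brakes was 1, 0 and 3 without DNMAML-GSI replicate 1, 2 or 3 and 2, 1 and 1 without MigR1-GSI replicate 1, 2 or 3.

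Ccr8, a chemokine receptor, had a wide difference short of a call: 7.75 ± 0.19 in MigR1-GSI and 9.08 ± 0.14 in DNMAML-GSI (SD, n = 3). Its arrays did not overlap, but the difference of 1.34 (SE 0.39) had an adjusted p of 0.27 in limma and of 0.047 with the replicate block. It was the 1 block call among 43 chemokine and migration receptors, where 0.466% of all genes were higher with the block. Of the 43, 0 were called without the block in the fit of all 24 arrays. Without the replicate 3 arrays of all groups, 1 of the 43 was called higher. Cytokine receptors and STATs had 0 of 41 called. The block called Kit and Il17ra higher there and Il2ra lower, against 0.466% and 0.351% of all genes. Il17ra differed by 0.48.

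Cell cycle genes had 0 calls. All 39 measured G2/M genes had a positive difference, where 49.2% of all genes did, and the median was 0.19. At an unadjusted p under 0.05, 5 were higher and 0 lower (3.31% and 2.95% of all genes). The block called 1 higher (0.466% of all genes), Nusap1 (0.42, adjusted p = 0.40 in limma, 0.048 with the block). The list's mean level was 7.87 to 8.22 in MigR1-GSI and 8.20 to 8.35 in DNMAML-GSI, so the groups overlapped. The median was 0.08 without MigR1-GSI replicate 3. The 39 measured genes of G1/S and DNA replication had a median of -0.06. Of them, 0 were higher and 2 lower at an unadjusted p under 0.05 (3.31% and 2.95% of all genes). Quiescence genes had 0 of 38 called and a median of 0.16. The block called Txnip (0.58), Slfn2 (0.60) and Rbl2 (0.51) higher, against 0.466% of all genes.

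**Figure D4:**
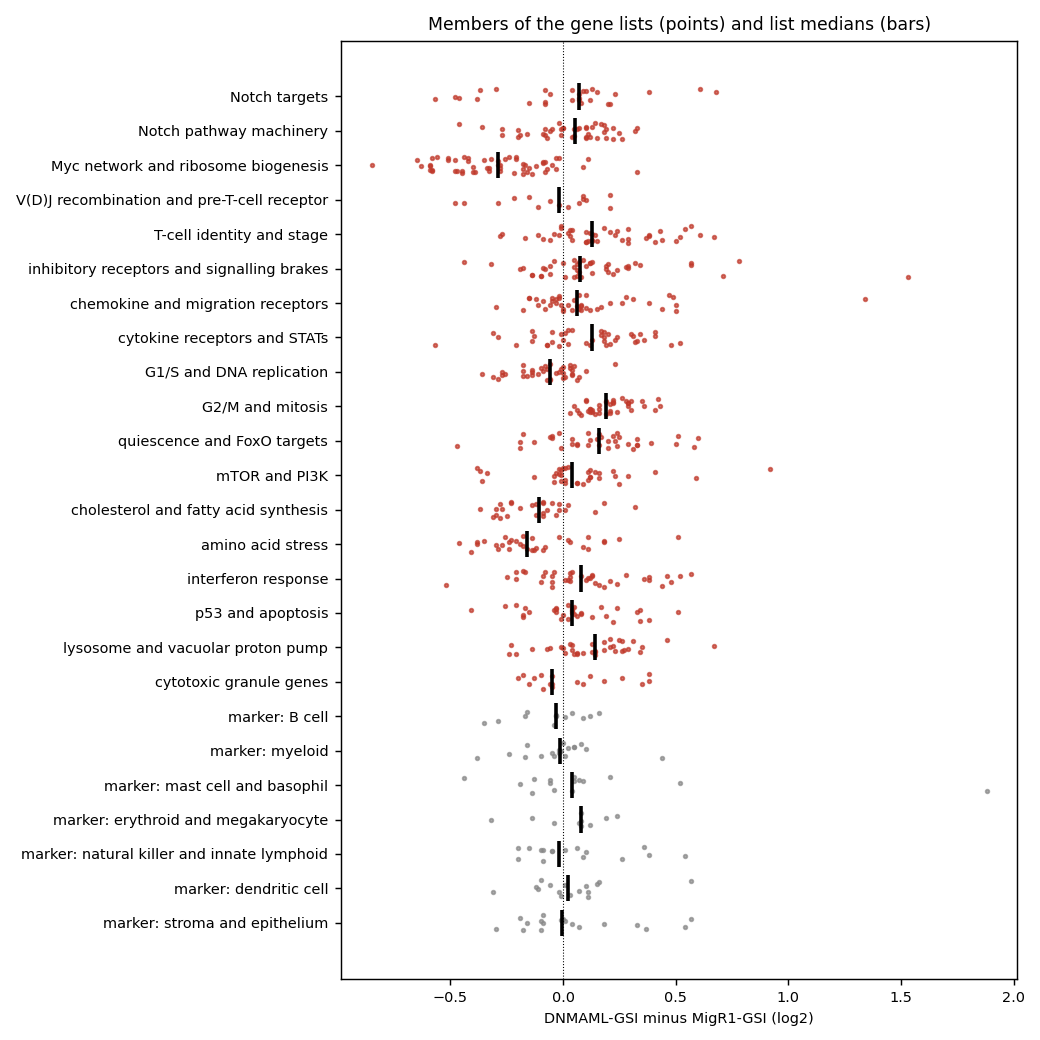
DNMAML-GSI minus MigR1-GSI on the log2 scale (x axis) for each measured member (points) of the 18 functional and 7 marker lists (rows), with a bar at each list's median. The Myc and ribosome biogenesis list has the lowest median, -0.29, and the G2/M list the highest, 0.19.

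The remaining lists gave few or 0 calls. Cholesterol and fatty acid synthesis (28 measured, median -0.10), interferon response (39, 0.08), cytotoxic granule genes (18, -0.05), the V(D)J recombination list (15, -0.02), lysosomal genes (37, 0.14) and p53 and apoptosis genes (34, 0.04) had 0. The block called 0.466% of all genes higher, among them the lysosomal protease Ctsd, by 0.67 (adjusted p = 0.083 in limma, 0.0033 with the block). The growth arrest gene Gadd45a was also higher with it, by 0.51 (0.055 and 0.015). Rag1, the recombinase subunit, differed by -0.48 (interval -1.12 to 0.16) at means of 3.83 and 3.35, below every array's median. The marker lists of dendritic cells (16 measured), stroma or epithelium (18), natural killer and innate lymphoid cells (16), the erythroid and megakaryocyte lineages (10) and B cells (13) had 0 calls, with medians of -0.03 to 0.08. The block, which called 0.818% of all genes, called 1 of these markers, Pecam1 of the stroma or epithelium list.

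The same construct contrast without inhibitor was available on 6 other arrays and shows where the inhibitor-treated pair differs. There, 220 genes were called higher (1.10%) and 166 lower (0.833%). Of the 21 genes higher under GSI, 19 were also called higher in DMSO, which is 90.5% of the first list and 8.64% of the second. Of the 17 lower under GSI, 15 were called lower in DMSO (88.2% and 9.04%), and 0 were called in opposite directions. The 4 called under GSI but not in DMSO were Ddit3, Scrg1, ccdc198 and Gzmn, and for none of them was the difference between the 2 contrasts called. Of the 220 genes higher in DMSO, 218 had a positive difference under GSI, where 49.2% of all genes did, with a median of 0.41 against 0.70 in DMSO. Of the 166 lower in DMSO, 158 had a negative difference under GSI, with a median of -0.32 against -0.63. The genes were chosen on the DMSO arrays, which favours larger values there. Across all 19938 genes, which are not independent replicates, the 2 sets of differences had an r of 0.49.

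**Figure D5:**
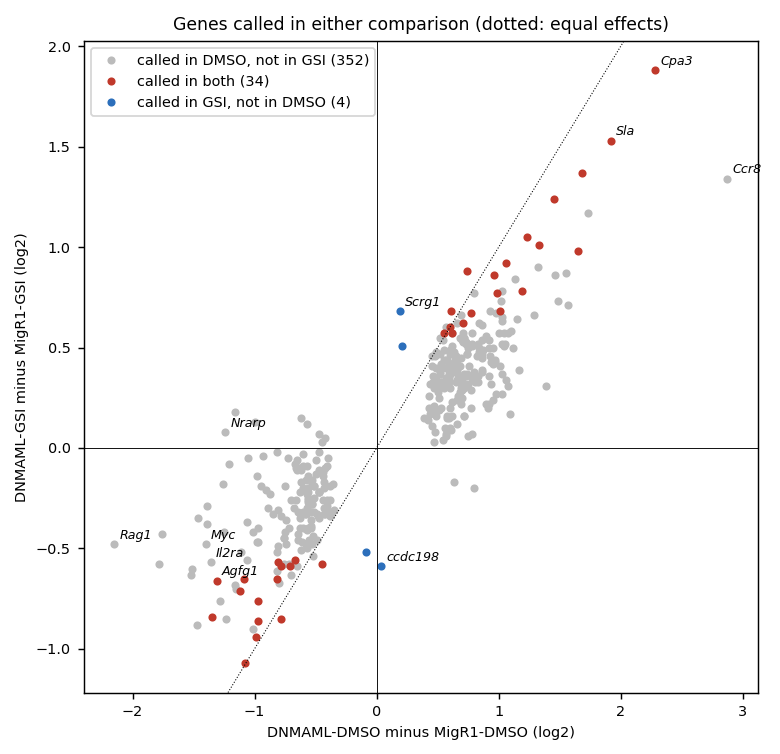
Genes called in either contrast, with the DNMAML minus MigR1 difference in DMSO (x axis) and in GSI (y axis) on the log2 scale and a dotted line of equal differences. The 34 genes called in both lie in the same quadrants, Cpa3 at 2.28 and 1.88, while Nrarp lies at -1.24 in DMSO and 0.08 in GSI.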

How the data were processed

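RNA of 24 samples was measured on Affymetrix Mouse Gene 1.0 ST arrays, 8 groups of 3. The deposited table holds the authors' log2 expression values of 35556 probe sets (1.28 to 13.47, array medians 3.90 to 4.18). That range is the basis for taking them as log2. The authors used oligo and limma, per the submitters' processing notes. Background correction, normalization, probe summarization and versions: not given in the sources used here. All values were used as deposited, without further scaling or a filter on dim genes.

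Groups and replicate numbers came from the sample titles. The platform annotation gives 1 symbol for 21789 probe sets, several for 1621 and none in the table used here for 12146, and 21698 of the first matched a RefSeq gene with 0 symbols changed. A gene with several probe sets (999 genes) was represented by the brightest on average over the 24 arrays, giving 19938 genes.

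Differences were fitted with limma 3.58.1 in R 4.3.3, with a mean for each group over all 24 arrays (16 residual degrees of freedom, 6.56 prior). Calls needed a two-sided Benjamini-Hochberg adjusted p under 0.05 over all 19938 genes. Intervals are 95% intervals of the fit, and adjusted p-values are limma's. The number of arrays limits the precision.

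Same-numbered arrays deviated together from their group means (r of 0.342, 0.225 and 0.558 for replicates 1, 2 and 3 of the main comparison, and at least 0.106 over the 4 groups used). Between the 2 groups, arrays 1 and 2 also deviated together (r of 0.207 and 0.183), and either against replicate 3 gave -0.438 to -0.283. In DMSO, DNMAML replicate 2 with MigR1 replicate 1 gave 0.274, against 0.199 and 0.114 for same-numbered arrays 1 and 2. Under the rule of more than 0.1 the numbers were treated as pairs, which these values do not establish for replicates 1 and 2. Blocked values stand where they change a call or move a count by more than 1.5 times.

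The comparison, its members, the 25 gene lists and the rule for naming genes were chosen with earlier results of these data known. The rule takes up to 15 called rises and 15 called falls without overlap, leaving out clone names, small RNAs and receptor segments. It adds all measured Notch targets, up to 4 called members of each other list, up to 5 genes each way in the test between contrasts, and Notch1, Maml1 and Rbpj. Of 826 list entries, 767 were measured. The fitting was tested on simulated data. Promoter sequences are RefSeq's, assembly GRCm38.p6, matched for 15614 genes. Other fits left out arrays, changed the arrays or genes in the fit, the scaling, the array weights or the spread prior, or tested every probe set.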

Additional observations from a re-analysis of the deposited data

Results flagged for a closer look

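The response of Nrarp to DNMAML differed between inhibitor and solvent by 1.32 on the log2 scale (SE 0.15, adjusted p = 2e-04 in limma's test of the difference between the 2 contrasts). The DNMAML arrays lay below the empty-vector arrays in DMSO in 3 of 3 and overlapped them in GSI, where the difference was 0.08. Both GSI groups and DNMAML in DMSO lay near the array medians (3.90 to 4.18). Whether a further fall could be measured there was not tested. Under the other fits of this test the value ranged from 1.26 to 1.41. The call was lost without the replicate 2 arrays of all groups (adjusted p = 0.52 in limma) and without those of replicate 3 (0.053).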

How the results depend on the processing

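For DNMAML-GSI against MigR1-GSI, where 38 genes were called, the count was 163 with the replicate block, 18 when only the 4 groups with MigR1 or DNMAML were fitted, 5 with only the 2 groups compared, 77 after second quantile normalization (28 higher, 49 lower) and 90 with array weights. It was 51, 49 and 37 with dim genes left out, with a trended robust prior and with every probe set. Of the 38, 4 were called with only the 2 groups, 15 with the 4 groups, 32 after quantile normalization and 38 with weights. With 1 array left out the counts ran from 9 to 23. Without the replicate 2 arrays of all groups the count was 0. In that fit limma left 656 genes at an unadjusted p under 0.05, against 996.9 expected by chance. Without the replicate 1 or replicate 3 arrays of all groups, 4 and 18 genes were called. For DNMAML in DMSO (386) the count was 934 with the replicate block, 591 after quantile normalization and 834 with weights, and 11 to 318 without arrays. For the difference between the 2 contrasts (1) it was 4, 2 and 2 with the block, weights and trended prior, and 0 to 3 without arrays. For the inhibitor in empty-vector cells (33) it was 82 with the block, 16 and 4 in the fits of 4 and 2 groups, 52 after quantile normalization and 51 with weights, and 2 to 21 without arrays. None of the 38 genes of the main comparison changed sign in the fits run for it with 1 probe set per gene. The causes of these shifts were not tested, beyond fewer arrays in some fits. With 3 arrays a group, genes with a mean near the array medians are the least certain.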
